A study of Homo sapiens with 8 samples.

Results

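Regulators of fetal globin silencing, the genes known to hold the gamma-globin genes *HBG1* and *HBG2* off after birth or to keep them on before it, were followed in HEK293T cells in which *HBG1* and *HBG2* were themselves the targets of CRISPR activation. The members were taken by gene symbol from a fixed list of names. They were *BCL11A*, *ZBTB7A*, *NFIX*, *CHD4*, *MBD2*, *POGZ*, *HIC2*, *LIN28B*, *IGF2BP1* and *IGF2BP3*, and all 10 were among the 19770 genes of the files. The comparisons address which of these genes HEK293T cells expressed and whether any of them differed between cells carrying a transcriptional activator and control cells.

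HEK293T is an established human embryonic kidney cell line. There were 4 groups of 2 RNA-seq libraries, each made 72 h after transfection. Every group, the control included, received dCas9, a Cas9 without nuclease activity, in some form and a gRNA pool aimed at *HBG1* and *HBG2*. In the control, dCas9 was paired with MCP-mCherry, a fluorescent protein fused to the MS2 coat protein, which binds the MS2 loops of the gRNAs and carries no activator. In CRISPR-DREAM (DREAM), dCas9 was paired with MCP-MSN, an activator fused to the same coat protein. In the SAM system (SAM), dCas9-VP64 was paired with MCP-p65-HSF1. In dCas9-VPR, the VPR effector was fused directly to dCas9, and the gRNAs of this group are not labelled as MS2-modified. By the paper's protocol, the single dCas9-VPR plasmid was given in a larger amount than each paired protein plasmid of the other groups. The amount of gRNA plasmid was the same, and the part of plasmid dose in comparisons with dCas9-VPR was not tested. Plasmids were delivered by transient transfection, and no sorting of transfected cells is described. In bulk samples such as these, a change in the number of cells of a kind and a change in the RNA of each cell cannot be told apart.

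Haemoglobin switching is the exchange of fetal gamma-globin for adult beta-globin in red cell precursors around birth. BCL11A and ZBTB7A (also called LRF) are zinc finger proteins that bind the gamma-globin promoters in adult erythroid cells and silence them, and both work with the NuRD chromatin remodelling and deacetylase complex, to which CHD4 and MBD2 belong. Fetal cells hold this arrangement back through LIN28B and the IGF2BP RNA-binding proteins, which limit BCL11A at the level of its RNA and protein, and through HIC2, which represses the *BCL11A* gene. HEK293T cells are not erythroid, so the levels below describe these regulators outside the tissue in which the switch occurs.

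The labels and the cells were checked against the targeted genes and against markers. *HBG2* was at 1.29 and 0.837 CPM (the authors' counts scaled to the library total) in the control, at 2187 and 2874 CPM with DREAM, at 707 and 860 CPM with SAM and at 218 and 201 CPM with dCas9-VPR, so all 6 activator libraries were far above both control libraries. *HBG1* was listed at 0 in both control libraries. Reads of *HBG1* and *HBG2* are hard to separate because the genes are near-identical copies. The 6 markers chosen for HEK293 cells summed to between 86.4 and 106 CPM. Of 16 erythroid markers, 9 were in the files. They summed to between 18.4 and 26.5 CPM, of which all but 3.13 to 5.29 CPM was *EPOR*, the erythropoietin receptor gene. Their sums were 18.4 to 20.2 CPM in the control and higher in every activator group. These were 21.0 to 21.8 CPM with DREAM, 22.8 to 26.5 CPM with SAM and 21.5 to 23.0 CPM with dCas9-VPR. *GATA1*, the defining erythroid transcription factor, was at 0 in both control libraries and at no more than 0.105 CPM elsewhere. Markers of other lineages, 3 of 6 in the files, summed to 2.52 to 2.58 CPM in the control libraries and lay above this range in every activator group, at 3.51 to 4.04 CPM with DREAM, 4.52 to 5.0 CPM with SAM and 3.12 to 3.59 CPM with dCas9-VPR. Of these, *PECAM1*, an endothelial adhesion molecule, was at 0.0319 and 0.13 CPM in the control, at 0.569 and 0.456 CPM with DREAM, at 1.03 and 1.17 CPM with SAM and at 0.0572 and 0.0321 CPM with dCas9-VPR. In the limma fit described below it was past a fold change of 2 with SAM (log2 fold change 1.46, standard error, SE, 0.21, limma adjusted p = 0.000455). The part of these markers in the results below was not tested. Depth was estimated at 28.3 to 35.1 M reads per library, at which 3 reads correspond to 0.086 to 0.106 CPM.

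All 10 regulators were expressed in HEK293T cells, in that each reached 1 CPM in at least 2 libraries, the limit for testing, and none fell below 3.91 CPM in any library. Genes were compared with each other only per kilobase of merged exons. *IGF2BP1* stood highest at 19.0 ± 2.26 CPM per kb (SD over the 8 libraries), followed by *LIN28B* at 12.1 ± 0.921 and *CHD4* at 11.4 ± 1.63 CPM per kb. *IGF2BP3* was at 8.17 ± 0.685, *HIC2* at 5.39 ± 0.856 and *POGZ* at 3.73 ± 0.493 CPM per kb. The median over 13980 tested genes with a known length was 4.13 CPM per kb, so the fetal-stage RNA-binding factors, *CHD4* and *HIC2* were above it and the other 5 below it. *MBD2* was at 2.36 ± 0.166, *ZBTB7A* at 1.26 ± 0.278, *NFIX* at 0.954 ± 0.257 and *BCL11A* at 0.286 ± 0.0431 CPM per kb. The 3 DNA-binding silencers thus held the 3 lowest places and *IGF2BP1* the highest.

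**Figure D1:**
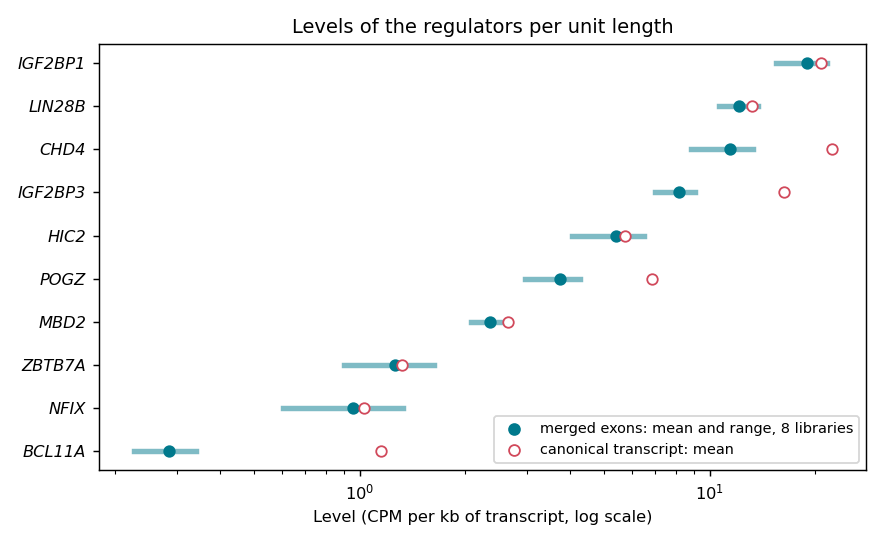
Level of each regulator in CPM per kb on a log axis. Filled points and bars give the mean and the range over the 8 libraries with the length of merged exons, and open points give the mean with the length of the canonical transcript. *IGF2BP1* leads with merged exons at 19.0 CPM per kb, and *BCL11A* moves most with the choice of length, from 0.286 to 1.15 CPM per kb.

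Neighbours in this order whose ranges over the 8 libraries overlapped were *LIN28B* and *CHD4*, *CHD4* and *IGF2BP3*, *HIC2* and *POGZ*, and *ZBTB7A* and *NFIX*. With the length of the canonical transcript in place of merged exons, a choice made after the data were seen, *CHD4* came first at 22.3 CPM per kb, ahead of *IGF2BP1* at 20.8 and *IGF2BP3* at 16.3 CPM per kb. *BCL11A* then stood at 1.15 CPM per kb, between *ZBTB7A* at 1.32 and *NFIX* at 1.03 CPM per kb, because its merged exons span 24.5 kb and its canonical transcript 6102 bases. The same 3 silencers kept the lowest places with either length. As a share of the summed level per kb of the 3 *IGF2BP* genes, *IGF2BP1* made up 53.7% ± 3.42 (SD, n = 2) in the control and 57.7% ± 0.363 (SD, n = 2) with dCas9-VPR, with DREAM and SAM between them.

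Relative to the control, a gene was called when its fold change was above 2 and its false discovery rate below 0.05 in a limma fit of log2(CPM + 0.5) over all tested genes. On this scale changes of low genes come out smaller than they are. By this rule 0 of the 10 regulators were called with DREAM, where 2.55% of the 15122 tested genes were, 0 of 10 with SAM (4.34% of tested genes) and 0 of 10 with dCas9-VPR (1.10%). At an unadjusted limma p under 0.05, the counts were 5 of 10 regulators with DREAM (40.2% of tested genes), 4 with SAM (52.7%) and 3 with dCas9-VPR (34.2%). With the false discovery rate alone and no fold threshold, 4 of 10 passed with DREAM (28.0% of tested genes), 3 of 10 with SAM (44.6%) and 2 of 10 with dCas9-VPR (17.6%). For 10 genes these counts are close to what the shares of all genes give. At a fold change above 1.5 the counts were 0 of 10 with DREAM (8.99%), 3 of 10 with SAM (14.5%) and 0 of 10 with dCas9-VPR (4.44%). The 95% confidence interval of the log2 fold change lay within a 2-fold change in either direction for all 10 regulators with DREAM and dCas9-VPR, and for 9 of 10 with SAM, *NFIX* being the exception. The 3 comparisons share the same 2 control libraries. Nothing in the labels says that the 2 libraries of a group came from separate cultures, so p-values measure only the spread between these libraries, and an exact two-sided permutation test of 2 against 2 cannot give p below 0.333.

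**Figure D2:**
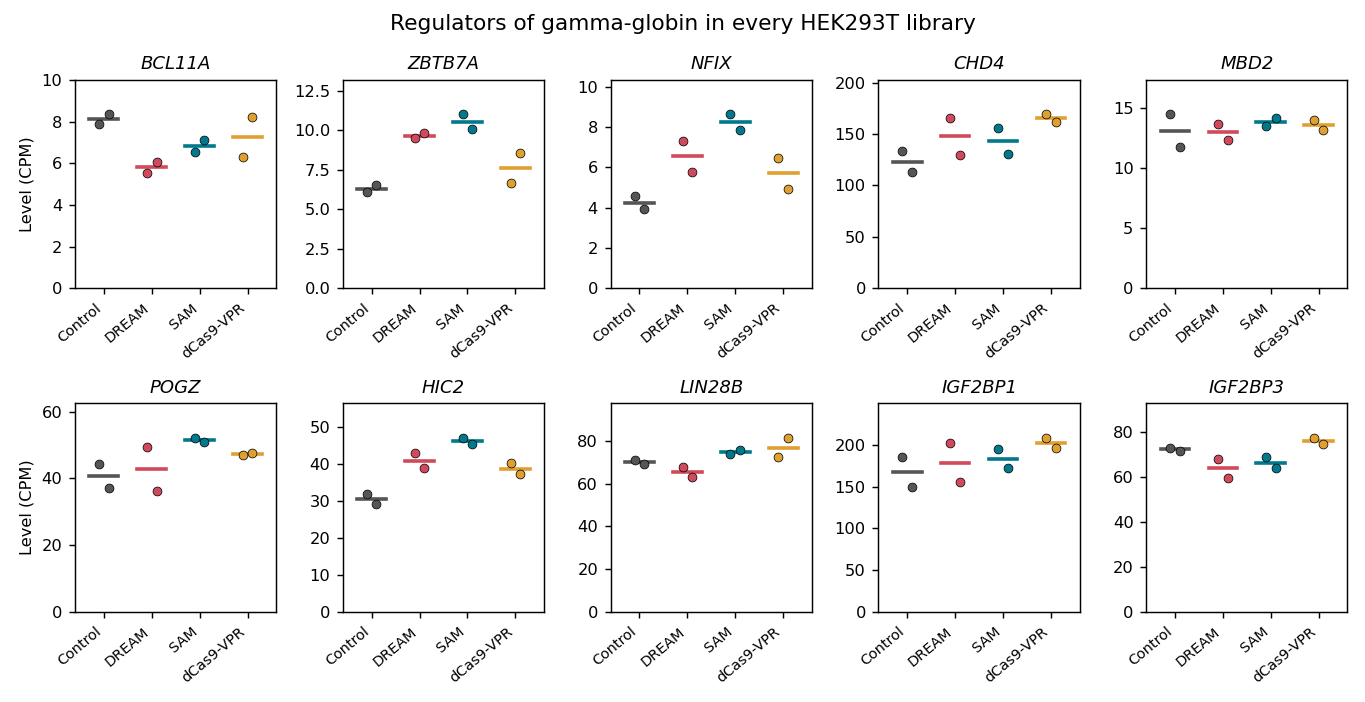
Level of each regulator in CPM in each of the 8 libraries, with 1 panel per gene and its own linear axis starting at 0. Points are libraries and bars are group means of 2 libraries. *ZBTB7A*, *NFIX* and *HIC2* have all 6 activator libraries above both control libraries, *BCL11A* has both DREAM libraries below both control libraries, and the groups of *MBD2* lie on top of each other.

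*BCL11A* (chromosome 2, 60450520 to 60554468, minus strand, hg38) encodes the main silencer of gamma-globin in adult erythroid cells. It was at 7.88 and 8.35 CPM in the control, at 5.54 and 6.07 CPM with DREAM, at 6.55 and 7.14 CPM with SAM and at 6.32 and 8.25 CPM with dCas9-VPR. Both DREAM libraries and both SAM libraries were below both control libraries, and the dCas9-VPR libraries overlapped the control. The log2 fold change was -0.45 with DREAM (SE 0.14, limma adjusted p = 0.0314), a level 0.732 times that of the control. It was -0.23 with SAM (SE 0.14, limma adjusted p = 0.189) and -0.16 with dCas9-VPR (SE 0.14, limma adjusted p = 0.448). *BCL11A* was the only regulator that passed the false discovery rate in the downward direction relative to the control. The DREAM value missed 0.05 without control replicate 1 (-0.49, limma adjusted p = 0.077), without control replicate 2 (-0.41, limma adjusted p = 0.149) and without DREAM replicate 1 (-0.39, limma adjusted p = 0.115). Its lowest library held about 172 reads of the gene, for which counting alone gives a standard deviation of 0.11 on the log2 scale.

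*ZBTB7A* (chromosome 19, 4043303 to 4066900, minus strand) encodes the silencer that binds the gamma-globin promoters independently of BCL11A. It was at 6.06 and 6.52 CPM in the control, at 9.52 and 9.8 CPM with DREAM, at 11.0 and 10.1 CPM with SAM and at 6.67 and 8.54 CPM with dCas9-VPR. The 6 activator libraries were above both control libraries, with those of DREAM and SAM above those of dCas9-VPR. The log2 fold change was 0.58 with DREAM (SE 0.13, limma adjusted p = 0.0071) and 0.70 with SAM (SE 0.13, limma adjusted p = 0.00166). Both values kept an adjusted p under 0.05 with each of the 8 libraries left out in turn. With dCas9-VPR it was 0.25 (SE 0.13, limma adjusted p = 0.198).

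*NFIX* (chromosome 19, 12995475 to 13098797, plus strand) encodes a nuclear factor I protein that also represses gamma-globin in erythroid cells. It was at 4.59 and 3.91 CPM in the control, at 7.31 and 5.79 CPM with DREAM, at 8.63 and 7.85 CPM with SAM and at 6.47 and 4.94 CPM with dCas9-VPR. All 6 activator libraries were above both control libraries, and the SAM libraries were above all others. The log2 fold change of 0.88 with SAM (SE 0.16, 95% confidence interval 0.53 to 1.23, limma adjusted p = 0.00156), a 1.84-fold higher level, was the largest of the 10 regulators in the 3 comparisons with the control. With DREAM it was 0.56 (SE 0.16, limma adjusted p = 0.0234), and this call was lost without control replicate 2 (0.46, limma adjusted p = 0.148) or without DREAM replicate 1 (0.41, limma adjusted p = 0.128). With dCas9-VPR it was 0.38 (SE 0.16, limma adjusted p = 0.121). *NFIX* varied more over the 8 libraries than the other regulators, by 2.21-fold from lowest to highest, and its lowest library held about 119 reads.

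*HIC2* (chromosome 22, 21417371 to 21451464, plus strand) encodes a zinc finger repressor of *BCL11A* that is abundant in fetal erythroid cells and so favours gamma-globin. It was at 31.9 and 29.3 CPM in the control, at 42.9 and 38.8 CPM with DREAM, at 47.0 and 45.3 CPM with SAM and at 40.2 and 37.3 CPM with dCas9-VPR. The control libraries were the 2 lowest and the SAM libraries the 2 highest. *HIC2* was the only regulator to pass the false discovery rate with every activator. The log2 fold change was 0.41 with DREAM (SE 0.08, limma adjusted p = 0.00371), 0.59 with SAM (SE 0.08, limma adjusted p = 0.000351) and 0.34 with dCas9-VPR (SE 0.08, limma adjusted p = 0.0174). Leaving out any library kept the first 2 calls, whereas the dCas9-VPR call was lost without control replicate 2 (0.28, limma adjusted p = 0.149), dCas9-VPR replicate 1 (0.28, limma adjusted p = 0.153) or dCas9-VPR replicate 2 (0.39, limma adjusted p = 0.0628).

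*ZBTB7A*, *NFIX* and *HIC2* were therefore the regulators with all 6 activator libraries above both control libraries, 3 of 10 where 23.2% of all tested genes showed the same. Over the mean of the 3 activators their log2 fold changes were 0.51 (limma adjusted p = 0.00395), 0.61 (limma adjusted p = 0.00491) and 0.45 (limma adjusted p = 0.000669). For *NFIX* this call was lost without control replicate 2 (0.50, limma adjusted p = 0.078). Here 0 of 10 regulators were called at a fold change above 2 (1.75% of tested genes), 1 at a fold change above 1.5 (7.62%), and 5 had an unadjusted limma p under 0.05 (47.5%). With the false discovery rate alone 4 of 10 passed (37.2% of tested genes), the remaining gene being *CHD4*. The 3 genes that were higher do not share a role, since *ZBTB7A* and *NFIX* encode silencers and *HIC2* favours gamma-globin. SAM also shifted the median log2 fold change of all tested genes to 0.16, against 0.06 with DREAM and with dCas9-VPR. Relative to that median gene, the SAM values of *NFIX*, *ZBTB7A* and *HIC2* were 0.72, 0.53 and 0.42.

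**Figure D3:**
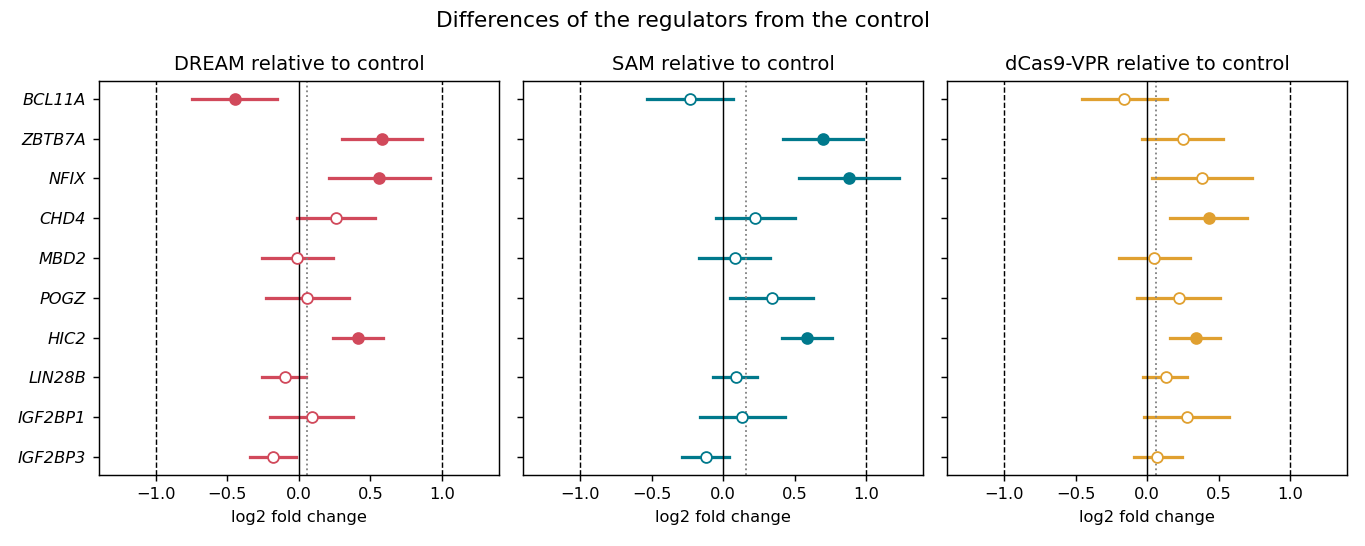
Log2 fold change of each regulator relative to the control with its 95% confidence interval, with 1 panel per activator. Filled points passed a false discovery rate of 0.05, dashed lines mark a 2-fold change in either direction and the dotted line marks the median of all tested genes. Filled points are 4 with DREAM, 3 with SAM and 2 with dCas9-VPR, and only the interval of *NFIX* with SAM, 0.53 to 1.23, crosses a dashed line.

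*HIC2*, *NFIX* and *ZBTB7A* were above the control in all 6 activator libraries, as were 23.2% of all tested genes. For each of them the 250 bases before the RefSeq start (GRCh38.p14) are shown, written 5′ to 3′ on the strand of the gene. Capitals mark GGGCGG, the GC box bound by SP and KLF factors, on either strand, so that a match on the opposite strand reads CCGCCC. The windows lie at chr22:21417121-21417370 on the plus strand, chr19:12995225-12995474 on the plus strand and chr19:4066900-4067149 on the minus strand.
HIC2: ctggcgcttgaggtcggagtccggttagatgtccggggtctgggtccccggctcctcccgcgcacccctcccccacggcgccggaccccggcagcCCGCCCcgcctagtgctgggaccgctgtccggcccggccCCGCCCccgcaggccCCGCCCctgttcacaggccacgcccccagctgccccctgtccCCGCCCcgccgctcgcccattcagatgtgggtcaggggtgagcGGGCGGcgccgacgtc
NFIX: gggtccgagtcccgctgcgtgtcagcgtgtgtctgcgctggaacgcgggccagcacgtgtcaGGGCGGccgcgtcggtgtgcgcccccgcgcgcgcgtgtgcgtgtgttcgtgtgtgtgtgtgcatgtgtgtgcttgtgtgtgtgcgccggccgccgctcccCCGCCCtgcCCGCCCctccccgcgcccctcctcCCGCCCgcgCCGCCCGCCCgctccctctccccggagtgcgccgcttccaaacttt
ZBTB7A: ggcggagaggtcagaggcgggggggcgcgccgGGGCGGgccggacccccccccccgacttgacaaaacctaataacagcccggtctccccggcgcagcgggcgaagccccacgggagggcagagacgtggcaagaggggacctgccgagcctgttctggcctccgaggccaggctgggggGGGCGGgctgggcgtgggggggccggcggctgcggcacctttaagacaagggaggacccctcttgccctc

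The *HIC2* window held 5 GC boxes, the *NFIX* window 6, of which the last 2 overlap, and the *ZBTB7A* window 2. Of the 10 regulators, 9 matched an entry in the promoter table and 7 of these 9 windows held a GC box, against 42.6% of 35116 windows of the same length. Those 35116 windows include several starts of some genes and were not limited to genes expressed here, so the sets are unlike. The *CHD4* window, which held a GC box, belongs to a start 928 bases from that of the canonical transcript. The GC content was 78.0% for *HIC2*, 74.8% for *NFIX* and 74.4% for *ZBTB7A*, with a median of 58.0% over all windows. TGACCA, the motif that BCL11A binds, was in 0 of the 9 windows and in 9.19% of all windows, on either strand. CCAAT, bound by NF-Y, was in 3 of the 9, none of them among the windows shown, and in 32.0% of all windows. A match describes letters in these windows and does not show binding.

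*CHD4* (chromosome 12, 6570082 to 6614525, minus strand) encodes the ATPase of NuRD and *MBD2* (chromosome 18, 54151606 to 54224670, minus strand) its reader of methylated DNA. *CHD4* was at 133 and 113 CPM in the control, at 166 and 130 CPM with DREAM, at 156 and 131 CPM with SAM and at 169 and 162 CPM with dCas9-VPR. Only the dCas9-VPR libraries were both above the control. Its log2 fold change with dCas9-VPR was 0.43 (SE 0.12, limma adjusted p = 0.0396), lost without control replicate 2 (0.31, limma adjusted p = 0.246), dCas9-VPR replicate 1 (0.40, limma adjusted p = 0.177) or dCas9-VPR replicate 2 (0.46, limma adjusted p = 0.118). With DREAM it was 0.26 (limma adjusted p = 0.143) and with SAM 0.22 (limma adjusted p = 0.169), and over the mean of the activators 0.30 (limma adjusted p = 0.0385). The last call was lost without control replicate 2 (0.18, limma adjusted p = 0.341), SAM replicate 1 (0.26, limma adjusted p = 0.0623), dCas9-VPR replicate 1 (0.29, limma adjusted p = 0.07) or dCas9-VPR replicate 2 (0.31, limma adjusted p = 0.0542). Another annotated gene, *AC006064.6*, overlaps *CHD4* on the same strand at a mean of 6.19 CPM, so their reads may be divided uncertainly.

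*MBD2* ranged from 11.8 to 14.5 CPM, and both of these extremes were control libraries, so that every activator library lay inside the control range. Its log2 fold changes were -0.01, 0.08 and 0.05 with DREAM, SAM and dCas9-VPR, with 95% confidence intervals of -0.26 to 0.24, -0.17 to 0.33 and -0.20 to 0.30. *POGZ* (chromosome 1, 151402724 to 151459495, minus strand) encodes a zinc finger protein with a transposase-derived domain whose loss raises fetal globin. It was at 44.2 and 37.0 CPM in the control, at 49.4 and 36.2 CPM with DREAM, at 52.1 and 50.8 CPM with SAM and at 47.1 and 47.5 CPM with dCas9-VPR. The SAM and dCas9-VPR libraries were above both control libraries, and the DREAM libraries spanned the control. The log2 fold change with SAM was 0.34 (SE 0.13, limma adjusted p = 0.0541), and those with DREAM and dCas9-VPR were 0.06 (limma adjusted p = 0.753) and 0.22 (limma adjusted p = 0.253).

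*LIN28B* (chromosome 6, 104936616 to 105083333, plus strand) encodes the RNA-binding protein that blocks maturation of let-7 microRNAs in fetal cells. It was at 71.2 and 69.5 CPM in the control, at 68.0 and 63.0 CPM with DREAM, at 73.9 and 75.8 CPM with SAM and at 72.5 and 81.4 CPM with dCas9-VPR. The DREAM libraries were below both control libraries and the others above them. None of the differences passed the false discovery rate, with log2 fold changes of -0.10 (limma adjusted p = 0.293), 0.09 (limma adjusted p = 0.324) and 0.13 (limma adjusted p = 0.226). The intervals were narrow, at -0.26 to 0.05, -0.07 to 0.24 and -0.03 to 0.28.

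*IGF2BP1* (chromosome 17, 48997385 to 49056146, plus strand) and *IGF2BP3* (chromosome 7, 23310209 to 23470492, minus strand) encode RNA-binding proteins of the fetal stage, and forced expression of IGF2BP1 raises gamma-globin in adult erythroid cells. *IGF2BP1* was at 186 and 150 CPM in the control, at 202 and 155 CPM with DREAM, at 195 and 172 CPM with SAM and at 208 and 196 CPM with dCas9-VPR. Only the dCas9-VPR libraries were both above the control, with a log2 fold change of 0.28 (SE 0.13, limma adjusted p = 0.166). *IGF2BP3* was at 73.0 and 71.7 CPM in the control, at 68.3 and 59.6 CPM with DREAM, at 69.2 and 63.9 CPM with SAM and at 77.4 and 74.7 CPM with dCas9-VPR. The DREAM and SAM libraries were below both control libraries and the dCas9-VPR libraries above them. The log2 fold changes were -0.18 (limma adjusted p = 0.0959), -0.12 (limma adjusted p = 0.207) and 0.07 (limma adjusted p = 0.527), of which none passed. With median-of-ratios scaling, which removes the shift of the median gene, the first 2 passed, at -0.24 (limma adjusted p = 0.0184) and -0.27 (limma adjusted p = 0.00814). *MALSU1* overlaps *IGF2BP3* on the opposite strand at 38.8 CPM, and how strand was used in counting is not given in the sources used here.

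Counted by overlap alone, 3 regulators had both DREAM libraries above the control (38.3% of tested genes) and 3 below it (22.8%). With SAM 5 were above (55.3%) and 2 below (19.2%), and with dCas9-VPR 8 were above (41.1%) and 0 below (23.8%). All but *BCL11A* and *MBD2* were above the control with dCas9-VPR, although the median log2 fold change of the regulators there was only 0.23, against 0.06 for all tested genes. With DREAM it was 0.08 against 0.06 and with SAM 0.18 against 0.16.

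The activators were then compared with each other. Between DREAM and SAM 0 of 10 regulators were called at a fold change above 2 (0.721% of tested genes), 0 passed the false discovery rate alone (10.7%) and 2 had an unadjusted limma p under 0.05 (29.2%). Between DREAM and dCas9-VPR 0 were called (0.734%), 3 had an unadjusted limma p under 0.05 (28.0%), and *IGF2BP3* alone passed the false discovery rate (13.1% of tested genes), at a log2 fold change of -0.25 (SE 0.07, limma adjusted p = 0.0495). That call was kept only without DREAM replicate 1 among the libraries left out, and the log2 fold change ranged from -0.35 to -0.15. Between SAM and dCas9-VPR 0 were called (2.31%), 4 had an unadjusted limma p under 0.05 (41.4%), and 3 passed the false discovery rate, all of them higher with SAM (23.6% of tested genes). They were *NFIX* at 0.50 (SE 0.16, limma adjusted p = 0.0354), *ZBTB7A* at 0.45 (SE 0.13, limma adjusted p = 0.0219) and *HIC2* at 0.25 (SE 0.08, limma adjusted p = 0.0358). With median-of-ratios scaling these were 0.42 (limma adjusted p = 0.0581), 0.37 (limma adjusted p = 0.0576) and 0.16 (limma adjusted p = 0.104). Each of the 3 calls was lost without either SAM library, and also in some fit without another library. With each library left out in turn, the log2 fold changes ranged from 0.33 to 0.68, 0.29 to 0.62 and 0.20 to 0.31. *ZBTB7A*, *NFIX* and *HIC2* shared the order SAM, DREAM, dCas9-VPR in their group means. For DREAM minus SAM the 95% confidence intervals were -0.40 to 0.16, -0.67 to 0.03 and -0.35 to 0.00, so this step was not resolved. For DREAM minus dCas9-VPR they were 0.05 to 0.62, -0.16 to 0.54 and -0.10 to 0.25. None of the 3 genes passed the false discovery rate at that step (limma adjusted p = 0.111, 0.485 and 0.583).

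A single limma F test over the 4 groups passed for 4 of 10 regulators, where 50.6% of tested genes passed. They were *HIC2* (limma adjusted p = 0.00139), *ZBTB7A* (limma adjusted p = 0.00438), *NFIX* (limma adjusted p = 0.00661) and *IGF2BP3* (limma adjusted p = 0.0495). The first 3 passed with each library left out and under every alternative in which they were tested, the filter at a mean of 10 CPM leaving out *ZBTB7A* and *NFIX*. *IGF2BP3* passed only without DREAM replicate 1 among the libraries left out, with adjusted p between 0.00765 and 0.176. *MBD2* was at the other end (limma adjusted p = 0.86).

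The GC content of the regulators' transcripts was set beside these values. The 3 regulators that were higher in all activator libraries, as were 23.2% of tested genes, have the 3 most GC-rich canonical transcripts of the 10. They are at 61.0% for *NFIX*, 59.7% for *HIC2* and 59.0% for *ZBTB7A*. The upper quartile of tested genes was 56.9% and the median 48.6%. *CHD4* followed at 51.3%, *IGF2BP1* at 49.1%, *POGZ* at 48.4% and *MBD2* at 45.1%. *BCL11A*, *IGF2BP3* and *LIN28B* were at 44.2%, 40.5% and 38.0%. Across 13980 genes, which share the same 8 libraries and are not independent, the Spearman correlation of GC content with the log2 fold change was 0.216 with DREAM, -0.0204 with SAM and 0.122 with dCas9-VPR. For the length of the canonical transcript the correlations were 0.061, 0.174 and 0.226 in the same order. The part of GC content or of transcript length in these differences was not tested.

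**Figure D4:**
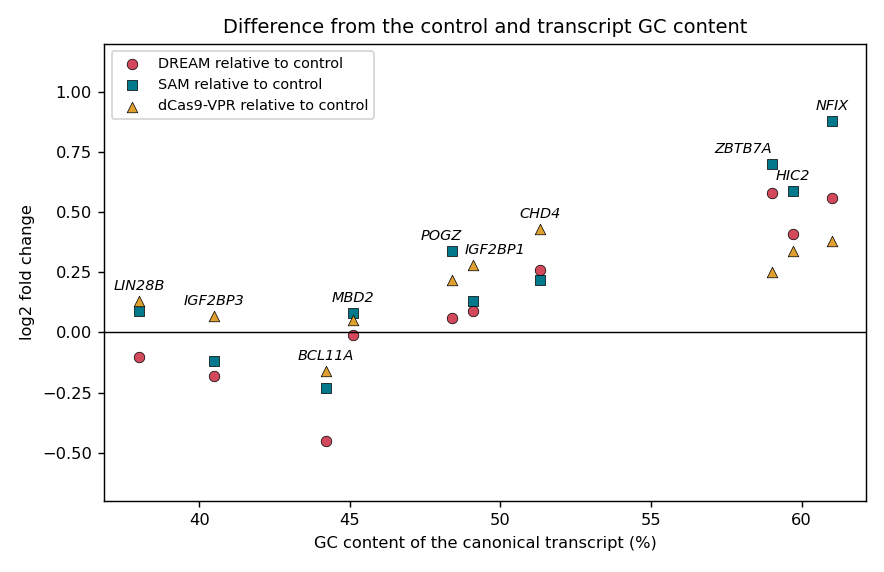
Log2 fold change of each regulator relative to the control against the GC content of its canonical transcript in percent. Each gene has 1 point per activator at the same GC content. *ZBTB7A*, *HIC2* and *NFIX* sit at 59.0% to 61.0% with positive values for every activator, and *BCL11A*, at 44.2%, is below 0 for every activator.

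Over the 8 libraries, the genes whose log2 level followed *HIC2*, the regulator with the smallest F test p, most closely were *PAK1* (Pearson's r = 0.9945), *AC026748.7* (r = 0.991) and *ARHGEF11* (r = 0.9909). These r values are a description over 8 libraries that share their groups and depth, picked as the highest of all tested genes. *PAK1* was at 47.4 and 42.2 CPM in the control, at 66.3 and 60.2 CPM with DREAM, 72.1 and 70.8 CPM with SAM and 58.9 and 55.5 CPM with dCas9-VPR. Among the regulators, *NFIX* followed *HIC2* with r = 0.98, *ZBTB7A* with r = 0.82 and *POGZ* with r = 0.71. *CHD4*, *IGF2BP1*, *MBD2* and *LIN28B* were at r = 0.59, 0.47, 0.43 and 0.16. *BCL11A* and *IGF2BP3* ran against *HIC2*, with r = -0.67 and -0.33.

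Around the members, 4 lists of related genes were counted. Of 12 tested NuRD subunits other than *CHD4* and *MBD2*, 2 were higher and 1 lower past the false discovery rate with DREAM (18.8% and 9.25% of tested genes), 6 and 1 with SAM (35.7% and 8.89%) and 1 and 0 with dCas9-VPR (11.0% and 6.68%). None was called at a fold change above 2, and the medians of their log2 fold changes were 0.05, 0.20 and 0.03. Per kb the most abundant was *HDAC1*, a deacetylase of the complex, at 75.9 CPM per kb, and the least abundant *CHD5* at 0.0153 CPM per kb, which was too low to test. Chosen after its values were seen, *HDAC1* was at 261 and 262 CPM in the control libraries and at 336 and 341 CPM with DREAM. The log2 fold change was 0.37 (SE 0.04, limma adjusted p = 0.000224). *HDAC1* also passed with SAM (0.27, limma adjusted p = 0.000903) and with dCas9-VPR (0.14, limma adjusted p = 0.0498). *RBBP4*, a histone-binding subunit also chosen after its values were seen, was lower with DREAM (-0.16, limma adjusted p = 0.0198) and with SAM (-0.19, limma adjusted p = 0.00709).

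Of 21 tested genes among other factors of globin switching, 5 were higher and 1 lower past the false discovery rate with DREAM. With SAM 8 were higher and 1 lower, and with dCas9-VPR 2 and 1. The shares of all tested genes were 18.8% and 9.25%, 35.7% and 8.89%, and 11.0% and 6.68%. The call at a fold change above 2 was that of *TAL1*, an erythroid transcription factor, which was at 0.734 and 0.75 CPM in the control libraries and at 2.06 and 2.47 CPM with SAM, a log2 fold change of 1.15 (SE 0.19, limma adjusted p = 0.000995). At these levels its lowest library held about 22.8 reads. *GATA1* was the least abundant gene of the list and *PRMT5*, an arginine methyltransferase, the most abundant at 65.0 CPM per kb. Other genes of the list are named here after their values were seen. *MYB*, a haematopoietic factor whose loss raises fetal globin, was lower with DREAM (-0.63, limma adjusted p = 0.0125) and with SAM (-0.52, limma adjusted p = 0.0207). *RCOR1*, which ties the demethylase LSD1 to its repressor complexes, was higher with all 3 activators, at 0.52, 0.60 and 0.36 (limma adjusted p = 0.00224, 0.000632 and 0.0219). *ZNF410*, known as a dedicated activator of *CHD4*, was lower with dCas9-VPR (-0.29, limma adjusted p = 0.0164), the group in which *CHD4* itself was higher.

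**Figure D5:**
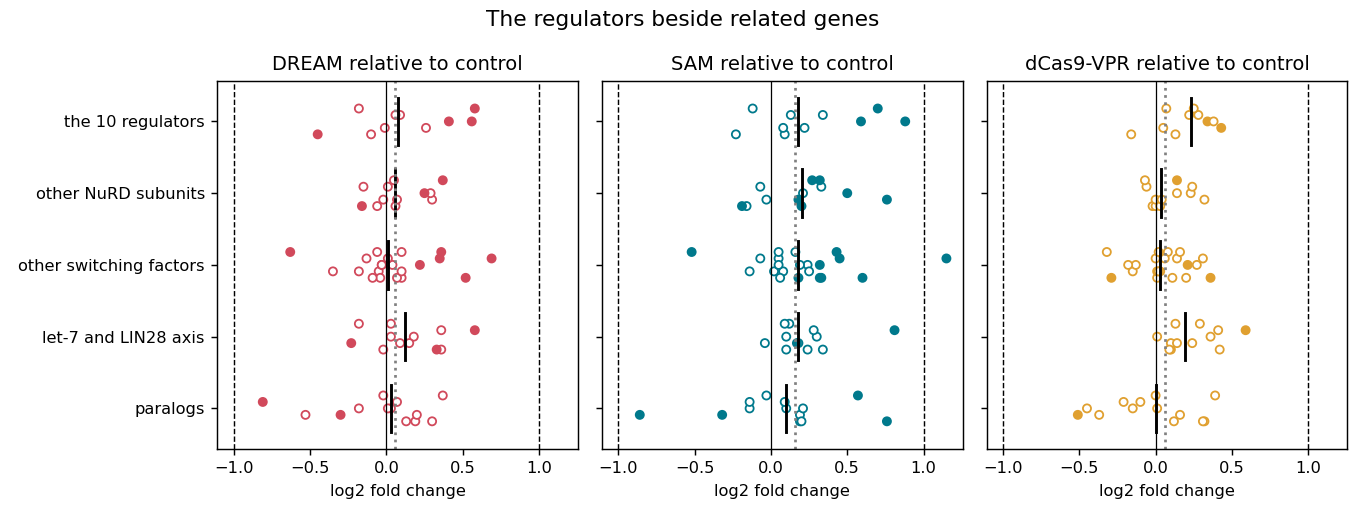
Log2 fold changes relative to the control for the 10 regulators and 4 related lists, with 1 panel per activator. Each point is a tested gene, filled where it passed a false discovery rate of 0.05, black bars are list medians, the dotted line is the median of all tested genes and dashed lines mark a 2-fold change. *TAL1* with SAM, at 1.15, is the point beyond a dashed line.

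Of 12 tested genes of the LIN28 and let-7 axis, 2 were higher and 1 lower past the false discovery rate with DREAM. With SAM 2 were higher and 0 lower, and with dCas9-VPR 1 and 0. All tested genes gave 18.8% and 9.25%, 35.7% and 8.89%, and 11.0% and 6.68%. At a fold change above 2, 0 of the 12 genes were called by limma. Of the 12 genes, 6, 4 and 7 had an unadjusted limma p under 0.05, against 40.2%, 52.7% and 34.2% of tested genes. *HMGA1*, an architectural chromatin protein, was the most abundant at 215 CPM per kb and *DIS3L2*, the nuclease that degrades blocked let-7 precursors, the least at 0.957 CPM per kb. *TRIM71*, a let-7 target named after its values were seen, was higher with all 3 activators, at 0.58, 0.81 and 0.59 (limma adjusted p = 0.0267, 0.00352 and 0.0381). *HMGA2*, another let-7 target named likewise, was lower with DREAM at -0.23 (limma adjusted p = 0.0255).

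Of 13 tested paralogs of the members, 0 were higher and 2 lower past the false discovery rate with DREAM. With SAM 2 were higher and 2 lower, and with dCas9-VPR 0 and 1. Over all tested genes the shares were 18.8% and 9.25%, 35.7% and 8.89%, and 11.0% and 6.68%. *HIC1*, the paralog of *HIC2*, was at 1.79 and 1.34 CPM in the control libraries and 0.659 and 0.597 CPM with SAM. The log2 fold change was -0.86 (SE 0.23, limma adjusted p = 0.0124), so that with SAM it was lower where *HIC2* was higher. It did not pass with DREAM (-0.53, limma adjusted p = 0.112) or dCas9-VPR (-0.37, limma adjusted p = 0.288). The lowest library of *HIC1* held about 21.0 reads. *ZBTB7B*, the paralog of *ZBTB7A*, was lower with all 3 activators at -0.30, -0.32 and -0.51 (limma adjusted p = 0.0369, 0.0191 and 0.0058). The difference between paralogs was not tested. Among the paralogs of *NFIX*, *NFIB* was lower with DREAM at -0.81 (limma adjusted p = 0.0118), *NFIC* was higher with SAM at 0.57 (limma adjusted p = 0.0367), and *NFIA*, at 4.21 to 5.74 CPM, did not pass in any comparison with the control. *BCL11B* stayed at or below 0.825 CPM and was not tested. *IGF2BP2* was at 32.0 to 38.8 CPM with log2 fold changes of 0.03, 0.10 and 0.01. *CHD3*, at 11.9 to 25.6 CPM, was higher with SAM at 0.76 (limma adjusted p = 0.00752), and the methyl-binding paralogs *MBD1*, *MBD3* and *MBD4* and the *POGZ* paralog *POGK* did not pass with any activator.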

How the data were processed

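RNA-seq was performed in duplicate in 4 groups of HEK293T cells, and the sample titles gave each library's group and replicate. The authors aligned reads with STAR 2.7.3a to hg38 with Gencode release 36, estimated transcript levels with a Bayesian method, and the deposited values are CPM, scaled to the genes of each file, with 0.0001 CPM added to every value. How these genes were chosen is not given in the sources used here. The authors ran DESeq2 3.5 on their data. A total RNA kit is named in the methods, whereas the labels give polyA RNA.

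The offset was subtracted, log2(CPM + 0.5) was fitted with limma 3.58.1 (R 4.3.3, trend and robust options) over all 8 libraries with 1 coefficient per group, and p-values were adjusted by Benjamini-Hochberg over the 15122 genes that reached 1 CPM in 2 or more libraries. Low CPM values fall on steps, whose size gave each library's depth. Only 70.4% to 75.9% of low values were whole reads within 0.1 read, so no count model was run, and counting error is approximate. The fit was tested on simulated data. Exon lengths and transcript GC content came from Gencode release 44 and promoters from RefSeq (GRCh38.p14), read with Python 3.11.15 and pandas 2.3.3.

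The members and the gene lists were chosen with earlier results of these data known. Every member is named, and of the other lists the genes called at a fold change above 2 relative to the control and the most and least abundant per kb; paralogs are given beside their members, and other genes are marked as named after their values were seen. Of the lists, *LIN28A* and 7 erythroid and 3 other lineage markers are not analysed here. Values of some listed genes are not reported here. As alternatives, the fit was repeated with median-of-ratios scaling, pseudocounts of 0.1 and 1 CPM, no filter, a filter at a mean of 10 CPM, only the libraries compared, a replicate block, limma without the trend and robust options, other thresholds and leaving out each library.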

Additional observations from a re-analysis of the deposited data

How the results depend on the processing

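At a fold change above 2, 0 of the 10 regulators were called in any of the 7 comparisons under every alternative that kept this threshold. With the false discovery rate alone the counts were 4 with DREAM, 3 with SAM, 2 with dCas9-VPR, 1 for DREAM relative to dCas9-VPR, 3 for SAM relative to dCas9-VPR and 4 for the mean of the activators. At a fold change above 1.5 they were 3 with SAM and 1 for the mean of the activators. A filter at a mean of 10 CPM removed *BCL11A*, *ZBTB7A* and *NFIX*. Without the trend and robust options, 0 regulators passed the false discovery rate with dCas9-VPR and between DREAM and dCas9-VPR, and 1 between SAM and dCas9-VPR. Over all tested genes, 385, 657 and 167 were called with DREAM, SAM and dCas9-VPR, against 72, 96 and 24 with the filter at a mean of 10 CPM. With a pseudocount of 1 CPM they were 406 with SAM and 98 with dCas9-VPR, and with 0.1 CPM 309 with dCas9-VPR.

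Signs turned for small values with median-of-ratios scaling, which moved the median gene from 0.16 to 0.02 with SAM. With SAM *LIN28B* (-0.06), *IGF2BP1* (-0.01) and *MBD2* (-0.06) turned, with dCas9-VPR *MBD2* (-0.01), for DREAM relative to SAM *IGF2BP1* (0.04) and *IGF2BP3* (0.03), for SAM relative to dCas9-VPR *MBD2* (-0.06), and for the mean of the activators *LIN28B* (-0.05) and *MBD2* (-0.05). The same scaling brought *IGF2BP3* (-0.17, limma adjusted p = 0.0329) and *BCL11A* (-0.36, limma adjusted p = 0.0335) past the false discovery rate for the mean of the activators and *LIN28B* (-0.23, limma adjusted p = 0.0461) for DREAM relative to dCas9-VPR, with *IGF2BP3* for SAM relative to dCas9-VPR (-0.28, limma adjusted p = 0.00922), and *CHD4* (0.21, limma adjusted p = 0.0781) missed it for the mean of the activators.

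Leaving out each library in turn also turned signs. With DREAM the ranges were -0.15 to 0.14 for *MBD2*, -0.10 to 0.28 for *IGF2BP1* and -0.16 to 0.28 for *POGZ*, with SAM -0.02 to 0.29 for *IGF2BP1* and -0.07 to 0.22 for *MBD2*, and with dCas9-VPR -0.10 to 0.20 for *MBD2* and -0.34 to 0.02 for *BCL11A*. For DREAM relative to SAM they were -0.14 to 0.22 for *CHD4*, -0.24 to 0.14 for *IGF2BP1* and -0.16 to 0.04 for *IGF2BP3*. For DREAM relative to dCas9-VPR they were -0.38 to 0.00 for *IGF2BP1*, -0.35 to 0.01 for *CHD4*, -0.13 to 0.01 for *MBD2* and -0.38 to 0.06 for *POGZ*. For SAM relative to dCas9-VPR they were -0.01 to 0.07 for *MBD2*, -0.25 to 0.10 for *BCL11A* and -0.12 to 0.04 for *LIN28B*, and for the mean of the activators -0.10 to 0.19 for *MBD2*. The cause was not tested. A group left with 1 library was assumed to vary like the others.

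The labels do not say what a replicate number marks. Deviations of same-numbered libraries correlated between groups, with r of 0.133 to 0.326 across genes, a hint from the data and not from the design. With the number as a replicate block, 0 regulators were called at a fold change above 2, and 6, 5 and 4 passed the false discovery rate with DREAM, SAM and dCas9-VPR (44.7%, 58.1% and 37.5% of tested genes under the block), 3 for DREAM relative to SAM (30.5%), 5 for DREAM (29.7%) and 5 for SAM (45.6%) relative to dCas9-VPR, and 6 for the mean of the activators (52.8%). Relative to the control, the block brought past it *CHD4* (0.26, limma adjusted p = 0.000732) and *IGF2BP3* (-0.18, limma adjusted p = 0.0071) with DREAM, *CHD4* (0.22, limma adjusted p = 0.0019) and *POGZ* (0.34, limma adjusted p = 0.0158) with SAM, and *IGF2BP1* (0.28, limma adjusted p = 0.00322) and *NFIX* (0.38, limma adjusted p = 0.0135) with dCas9-VPR. The F test under the block passed also for *BCL11A* (0.00854), *LIN28B* (0.00435), *IGF2BP1* (0.00784), *CHD4* (2e-05) and *POGZ* (0.0416), as limma adjusted p-values. Without a filter, with a filter at 10 CPM and without the trend and robust options the F test of *IGF2BP3* missed 0.05 (limma adjusted p = 0.0578, 0.0545 and 0.133). Depth limited *NFIX*, *BCL11A* and *ZBTB7A* most, with 119, 172 and 188 reads in their lowest libraries.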

Other observations

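Some regulators differed in the same direction between the 2 libraries of each group. *IGF2BP1* and *CHD4*, both abundant, followed each other over the 8 libraries with r = 0.94, a description over libraries that share their groups. *IGF2BP1*, *IGF2BP3*, *HIC2*, *NFIX* and *CHD4* were higher in replicate 1 than in replicate 2 in all 4 groups, and *BCL11A* was lower in replicate 1 in all 4. Of all tested genes, 57.9% were higher in replicate 1 in the control, 61.3% with DREAM, 52.6% with SAM and 54.6% with dCas9-VPR. The share of all tested genes with the same direction in all 4 groups was not counted. Whether this trait is particular to the regulators is therefore not known. For *IGF2BP1* the log2 difference between the replicates was 0.31 for the control, 0.38 for DREAM, 0.18 for SAM and 0.08 for dCas9-VPR. For *CHD4* it was 0.24, 0.36, 0.25 and 0.06. Its standard deviation over the 9799 genes averaging 10 CPM or more was 0.115 to 0.172, depending on the group.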
